A study of Mus musculus with 24 samples.

Results

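Cadherins are calcium-dependent adhesion proteins of the cell surface, and protocadherins are their largest group of relatives. The genes described here are those named Cdh or Pcdh with only a number and an optional letter after it, so the clustered protocadherins (Pcdha, Pcdhb and Pcdhg) were left out. The rule found 32 genes, 21 named Cdh and 11 named Pcdh, among 28658 gene names on the arrays. After a filter on dim spots 31 of them, 20 Cdh and 11 Pcdh, stood among the 24720 genes tested, and each was read from its brightest probe. Cdh9 was not tested, since its probe was well above background on 3 of 24 arrays.

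RNA came from the urogenital sinus (UGS), the embryonic tube of epithelium and mesenchyme that gives rise to the prostate, of C57/Bl6J (Jackson) mice. In the 6 h and 12 h comparisons, mothers were given 50 mg/kg dihydrotestosterone (DHT, an androgen) or vehicle at 16 days post coitum (dpc), and the UGS was dissected from female embryos after 6 or 12 h. In the third comparison, unmanipulated male embryos were set against their female littermates at 17.5 dpc, a point the labels number as 48 h. Each sample was a pool of several embryos with the accessory ducts dissected away, and each pair of pools was hybridised on 2 two-colour arrays with the dyes exchanged: 4 pairs at 6 h, 3 at 12 h and 5 of males and females.

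Classical cadherins bind the same cadherin on a neighbouring cell and are tied to the actin skeleton by catenins. The cadherin that a cell displays is characteristic of its kind, with Cdh1 (E-cadherin) on epithelium and Cdh2 (N-cadherin) and Cdh11 on many mesenchymal and neural cells, and a shift between them accompanies the passage of cells between epithelium and mesenchyme. Protocadherins lack the catenin-binding tail of the classical type, adhere weakly and are best known from neural tissue.

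Uncorrected, an array's median spot signal was 102.3 to 151.1 for Cy3 and 98.14 to 146.2 for Cy5, and the number of pairs limits the precision. Each comparison was hybridised on its own day, so comparison and day cannot be told apart. Vehicle pools of pairs 2, 3 and 4 at 6 h carried Y-linked RNA although all pools of that comparison were labelled female, with mean log2 ratios of 4 Y-linked genes of −0.14, −1.27, −0.68 and −0.74 in pairs 1 to 4. The correlation between both arrays of a pair, taken across genes that are no independent replicates, was 0.351 to 0.741 between the sexes. At 6 h the correlation ran from −0.512 to −0.0776, and at 12 h from −0.216 to 0.0902, so single arrays of the DHT comparisons did not read alike and the averages over exchanged dyes were used. Nothing in the labels says that pools of a group came from separate mothers, so p-values measure the spread between these pools. In pooled tissue, fewer cells of a type and less RNA per cell cannot be told apart.

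Between the sexes the cadherins differed in both directions. Cdh16 and Cdh1, both epithelial cadherins, were higher in the male UGS together with Cdh3, Cdh8, Cdh13 and Pcdh9. Males had less RNA of Pcdh10, Pcdh19, Pcdh18 and Pcdh8 and of the mesenchymal and neural cadherins Cdh2 and Cdh11. Of 31 members 12 passed (38.7%), against 7.58% of all genes tested. The 6 that were higher compare with a background of 3.72% in that direction, and the 6 that were lower with 3.86%. The median log2 ratio was −0.01 over the members and 0.00 over all genes, and the median absolute ratio was 0.08 and 0.04. After DHT 0 of 31 passed at 6 h (1.67% of all genes) and 1, Pcdh8, at 12 h (0.287% of all genes).

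**Figure D1:**
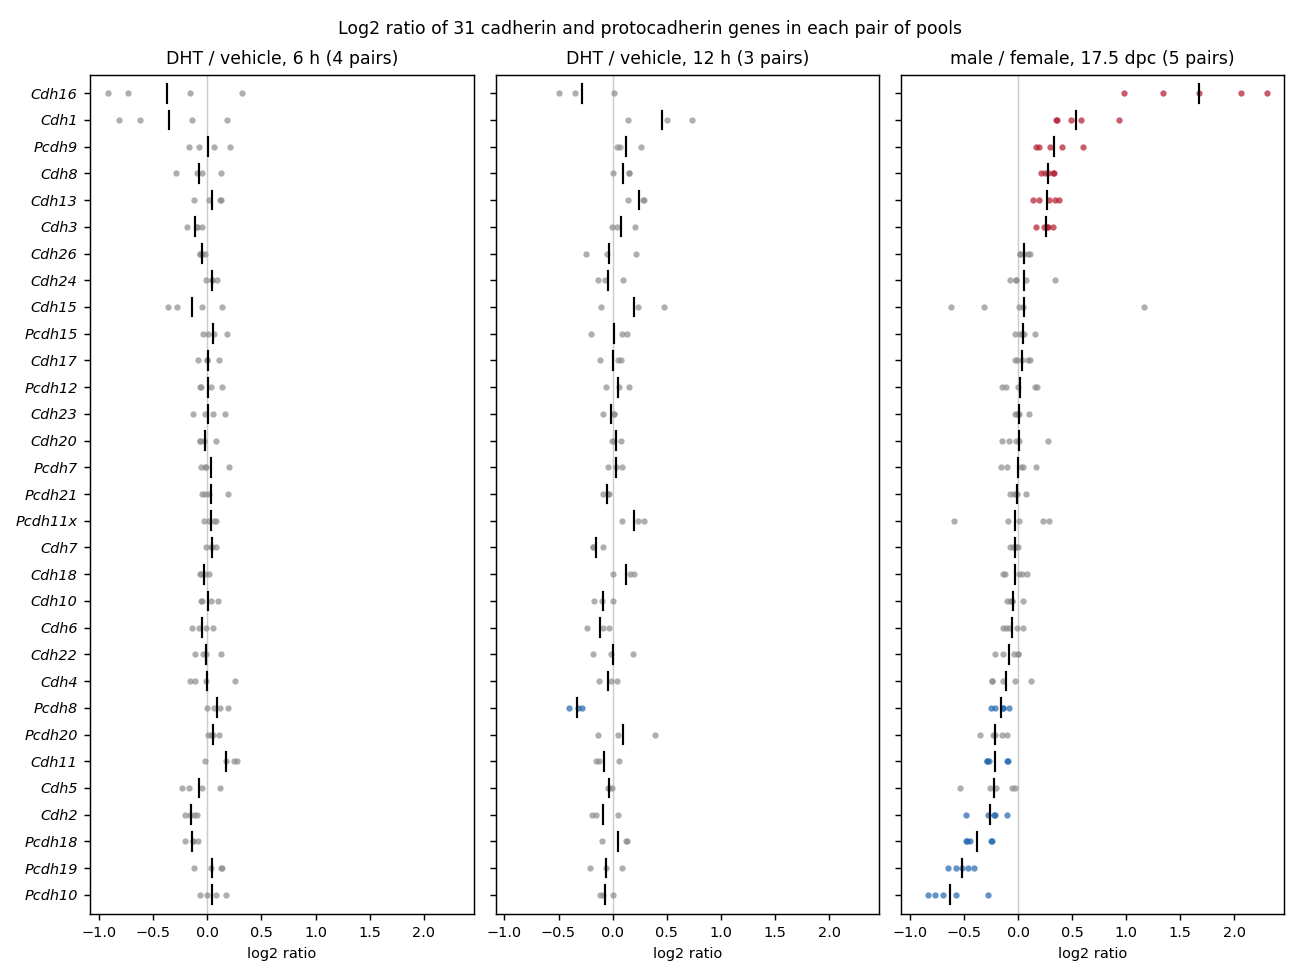
Log2 ratio (x axis) of the 31 tested genes (y axis, ordered by the male to female mean) in the 3 comparisons. Each point is 1 pair of pools and the black bar is the mean, with genes past the threshold in red (higher) or blue (lower). Coloured are 12 genes in the male and female panel, 1, Pcdh8, at 12 h and 0 at 6 h. The shares over all genes tested were 7.58%, 0.287% and 1.67%.

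The largest difference was in Cdh16, or Ksp-cadherin, a cadherin of kidney tubules and of embryonic urogenital duct epithelium. Its log2 signal was 9.21, 10.05, 9.84, 10.20 and 9.49 in the male pools of pairs 1 to 5 and 8.23, 7.99, 8.17, 7.90 and 8.15 in their female partners. All male pools lay above all female pools, and the females differed little among themselves. The log2 ratios of 0.98, 2.06, 1.67, 2.30 and 1.34 averaged 1.67 (SD 0.53, n = 5, adjusted p = 8.48e-05), a 3.18-fold excess in males. Cdh16 kept its call under all 17 other settings tried, with values from 1.51 to 1.95. Markers of the Wolffian and Mullerian ducts, 9 of 9 measured, averaged −0.11, 0.01, 0.03, 0.20 and −0.07 in the same pairs. Of these 9, 2 were higher (Wnt9b and Calb1) and 2 lower (Wnt7a and Amhr2), against backgrounds of 3.72% and 3.86%. The list pools both kinds of duct, so changes in opposite directions cancel in its mean. The mean log2 signal of the duct list was 7.07 to 7.21 in male and 7.0 to 7.32 in female pools, which overlap, and its part in the Cdh16 difference was not tested.

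Cdh1 makes the adherens junction between epithelial cells. Male pools had log2 signals of 11.16, 11.09, 11.39, 11.24 and 11.49 in pairs 1 to 5 and female pools 10.81, 10.73, 10.46, 10.75 and 10.90. The sexes did not overlap, and the widest gap was in pair 3, where the female pool was the lowest of all. Cdh1 was higher in males by 0.54 (SD 0.24, adjusted p = 0.0187), with ratios of 0.35, 0.36, 0.93, 0.49 and 0.58. The call was lost without pair 3 (0.45, adjusted p = 0.0641), pair 4 (0.56, adjusted p = 0.0572) or pair 5 (0.53, adjusted p = 0.0514).

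Epithelial markers, none of them a cadherin, were mostly above 0 in males, as Cdh1 was. Of 28 measured of 29 listed, 27 had a ratio above 0 in males, 12 were higher past the threshold and 1, Cldn6, lower. Their mean log2 signal was 9.31 to 9.72 in male and 9.12 to 9.31 in female pools. Their mean ratio per pair was 0.05, 0.29, 0.46, 0.40 and 0.19. Cdh1 and this mean were both highest in pair 3 and lowest in pair 1. In pair 5 Cdh1 was at 0.58 and the epithelial mean at 0.19. With that mean as a covariate, Cdh1 was at 0.14 (adjusted p = 0.514). Under the same covariate Cdh16 was at 1.66 (adjusted p = 0.00448), nearly its value without it.

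Cdh3, or P-cadherin, marks basal cells of many epithelia. It had log2 signals of 7.32, 7.39, 7.31, 7.23 and 7.37 in male pools and 7.04, 7.12, 7.06, 6.91 and 7.20 in female pools. Every male pool was above every female pool, and the 5 ratios, 0.17 to 0.32, lay close together. The mean was 0.26 (SD 0.06, adjusted p = 0.000608), and 0.20 (adjusted p = 0.0407) with the epithelial covariate. With the mean of mesenchymal markers as a covariate, it was 0.22 and the call was lost (adjusted p = 0.0678).

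Cdh13, or T-cadherin, is anchored in the membrane by a lipid and has no cytoplasmic tail. Its ratios of 0.29, 0.19, 0.14, 0.38 and 0.34 were all positive and averaged 0.27 (SD 0.10, adjusted p = 0.00212). The male signals of 7.70 to 8.12 overlapped the female signals of 7.41 to 7.79. With the epithelial or the mesenchymal covariate Cdh13 was at 0.24 and lost its call (adjusted p = 0.0734 and adjusted p = 0.133).

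Cdh8 is a type II cadherin best known from neurons. It had log2 signals of 6.36, 6.40, 6.25, 6.40 and 6.48 in male pools and 6.08, 6.18, 6.00, 6.08 and 6.15 in female pools, with no overlap. Its probe was well above background on 10 of 10 arrays in the male channel and on 2 of 10 in the female channel. The mean ratio was 0.28 (SD 0.05, adjusted p = 0.00258), and so close to background its size depended on the correction, from 0.21 to 1.40. With the epithelial or the mesenchymal covariate it was 0.27 and the call was lost (adjusted p = 0.066 and adjusted p = 0.107). Neuron and Schwann cell markers, 16 of 16 measured, had 0 past the threshold in either direction in limma, and their pair means of −0.08, 0.02, −0.44, −0.16 and 0.21 differed in sign.

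Pcdh9, a protocadherin of the delta-1 group, was the only protocadherin that passed as higher in males. The ratios were 0.30, 0.41, 0.17, 0.19 and 0.60, with a mean of 0.33 (SD 0.18, adjusted p = 0.00563). Male signals of 7.73 to 8.38 and female signals of 7.55 to 7.84 overlapped. Its 3 dimmer probes read 0.12, 0.16 and 0.10, the same way and smaller. The call was lost when the comparison was fitted alone (adjusted p = 0.0514).

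**Figure D2:**
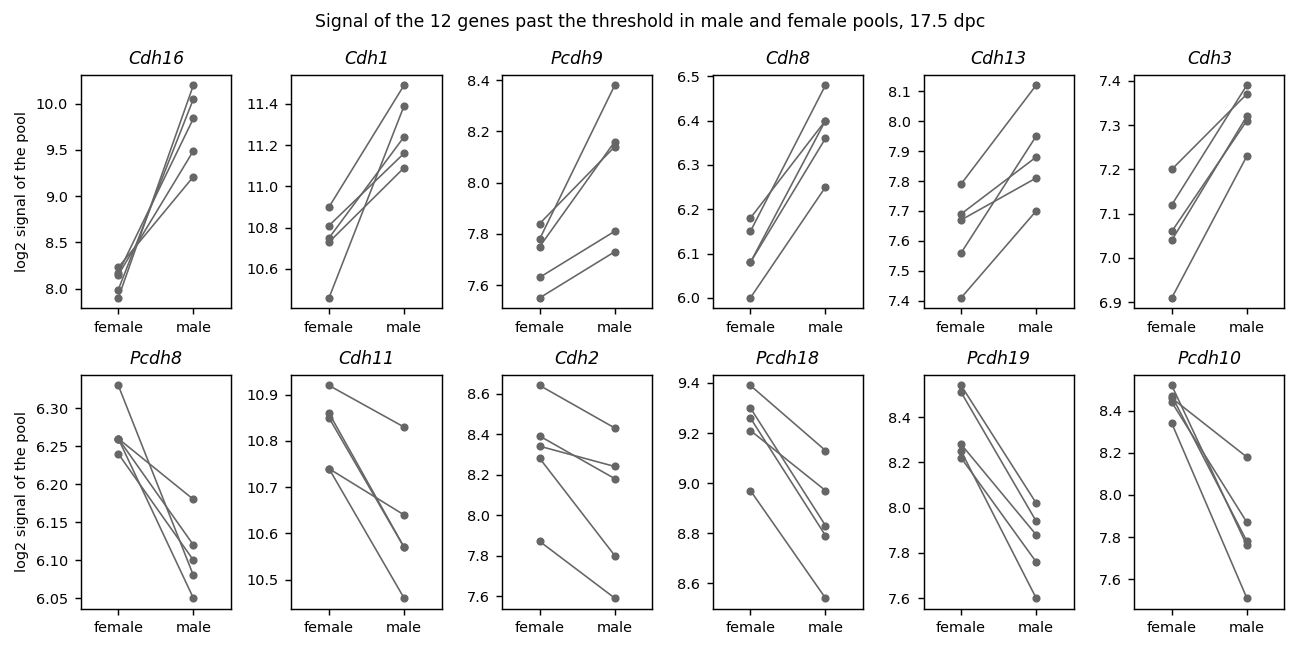
Log2 signal (y axis, a separate range for each gene) of the 12 genes past the threshold in the female and male pools at 17.5 dpc, with a line joining the pools of each of 5 pairs. All lines rise in the upper row and fall in the lower row, and for Cdh16 the male pools (9.21 to 10.20) stand apart from the female pools (7.90 to 8.23).

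The protocadherins that were lower in males, Pcdh8, Pcdh10, Pcdh18 and Pcdh19, all belong to the delta-2 group, whose members have short conserved motifs in the tail and act in cell movement and sorting in the embryo. They were all 4 of that group among the members, while of the delta-1 group Pcdh9 was higher and Pcdh7 and Pcdh11x did not pass. This grouping was made after the values were seen and has no test. The promoters of the 3 with the largest differences are shown because the genes were lower together. Each runs from 250 bases before to 50 bases after the start in RefSeq (GRCm38.p6), with CCAAT or its reverse complement in capitals, the letters of the CCAAT box, an element bound by NF-Y.
Pcdh10, chr3:45378148-45378447, plus strand: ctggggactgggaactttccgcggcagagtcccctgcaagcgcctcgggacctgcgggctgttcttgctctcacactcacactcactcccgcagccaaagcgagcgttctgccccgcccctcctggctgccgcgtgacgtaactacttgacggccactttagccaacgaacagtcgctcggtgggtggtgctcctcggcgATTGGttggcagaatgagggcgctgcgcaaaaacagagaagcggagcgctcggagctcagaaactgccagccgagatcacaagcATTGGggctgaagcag
Pcdh18, chr3:49757267-49757566, minus strand: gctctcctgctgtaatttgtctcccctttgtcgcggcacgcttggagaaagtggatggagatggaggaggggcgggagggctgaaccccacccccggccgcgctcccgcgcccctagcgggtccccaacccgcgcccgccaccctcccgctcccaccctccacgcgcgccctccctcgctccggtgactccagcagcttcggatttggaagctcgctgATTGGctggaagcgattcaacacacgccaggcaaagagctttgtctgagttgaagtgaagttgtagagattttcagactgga
Pcdh19, chrX:133688944-133689243, minus strand: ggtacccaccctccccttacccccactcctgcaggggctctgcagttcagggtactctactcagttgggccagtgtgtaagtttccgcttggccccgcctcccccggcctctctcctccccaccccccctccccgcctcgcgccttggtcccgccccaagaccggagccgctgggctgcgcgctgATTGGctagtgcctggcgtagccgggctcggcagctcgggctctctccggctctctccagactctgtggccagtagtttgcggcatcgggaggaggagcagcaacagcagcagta
Of the 32 members, 21 matched an entry and had 24 promoters. CCAAT, counted on both strands, was in 17 of these 24 (70.8%) and in 37.4% of 32851 promoters of that length. The promoters of Pcdh8 and Pcdh9 held it too, so it did not separate genes lower in males from a gene higher in males. CAGGTG, the E-box of the Snail and Zeb repressors, was in 6 of 24 (25.0%) and in 20.2% of all, on both strands. These motifs were chosen with the results known, cannot overlap as whole copies of one another, and a match describes letters only. Cdh1 and Cdh16 had no entry.

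Pcdh10 fell by 0.63 on the log2 scale in males (SD 0.22, adjusted p = 3.65e-05), to 0.647 of the female signal. Male pools had log2 signals of 7.87, 8.18, 7.78, 7.51 and 7.76 in pairs 1 to 5, and female pools 8.44, 8.46, 8.47, 8.34 and 8.52. Females were nearly level, all males lay below them, and pair 2 showed the smallest difference at −0.28. The other ratios were −0.57, −0.69, −0.83 and −0.77. Of its 3 dimmer probes 2 read −0.50 and −0.35, and the dimmest, at −0.05, was well above background on 17 of 24 arrays.

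Pcdh19, an X-linked protocadherin that works together with Cdh2, fell by 0.52 (SD 0.09, adjusted p = 2.15e-05). Log2 signals were 7.88, 7.94, 7.76, 7.60 and 8.02 in males and 8.28, 8.51, 8.22, 8.25 and 8.54 in females, without overlap. The ratios of −0.41, −0.57, −0.46, −0.65 and −0.52 were close together. A dimmer probe read −0.14 with an SD of 0.35. Pcdh11x, the other X-linked member, was at −0.03 (SD 0.35, adjusted p = 0.928).

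Pcdh18 fell by 0.38 (SD 0.12, adjusted p = 0.000152), with ratios of −0.24, −0.48, −0.47, −0.44 and −0.25. The lowest female pool, at 8.97 in pair 4, lay within the male range of 8.54 to 9.13, so the sexes overlapped although each male pool was below its partner. On 1 of the 10 arrays, in pair 1, the scanner software marked the Pcdh18 spot as an outlier. That spot read 2.89 against −0.69 to −0.18 on the other 9 arrays and was left out, so the value of pair 1 comes from 1 array. With outlier spots kept, the mean was −0.06 (adjusted p = 0.936).

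Pcdh8 (paraxial protocadherin) guides cell movements of the early embryo and acts at synapses. Its log2 signals were 6.05, 6.10, 6.08, 6.12 and 6.18 in male pools and 6.26, 6.24, 6.33, 6.26 and 6.26 in female pools. All male pools were lower, but the probe was well above background on 1 of 10 arrays in the male channel against 8 of 10 in the female channel. The fall was 0.16 (SD 0.07, adjusted p = 0.0111), and its size ranged from −0.80 to −0.11 with the processing.

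Cdh2 fell by 0.26 in males (SD 0.14, adjusted p = 0.00512), with ratios of −0.21, −0.22, −0.48, −0.28 and −0.10. Male signals of 7.59 to 8.43 and female signals of 7.87 to 8.64 overlapped widely, and the pairs differed more among themselves than the sexes did. Cdh11, which mesenchymal and bone-forming cells carry, had ratios of −0.29, −0.09, −0.10, −0.27 and −0.29 and a mean of −0.21 (SD 0.10, adjusted p = 0.0189). Male pools at 10.46 to 10.83 overlapped female pools at 10.74 to 10.92, and its dimmer probes read −0.15 and −0.09. The call of Cdh11 was lost without pair 1 (adjusted p = 0.0668), pair 4 (adjusted p = 0.0872) or pair 5 (adjusted p = 0.0651), with −0.19 each time.

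Mesenchymal markers, 14 of 14 measured, were also lower in males, with 0 higher and 5 lower past the threshold. Their mean ratio was −0.23, −0.01, −0.51, −0.67 and −0.05 in pairs 1 to 5, and their mean log2 signal was 11.53 to 12.29 in male and 12.17 to 12.31 in female pools. With that mean as a covariate, chosen after the data were seen, Cdh2 was at −0.15 (adjusted p = 0.398) and Cdh11 at −0.17 (adjusted p = 0.448). Pcdh10 was at −0.50 (adjusted p = 0.00687), Pcdh19 at −0.47 (adjusted p = 0.0044) and Pcdh18 at −0.33 (adjusted p = 0.0216) under the same covariate, and so kept their calls. Pcdh8 did not (−0.13, adjusted p = 0.401). Pcdh10 and the mesenchymal mean were both lowest in pair 4, at −0.83 and −0.67, and both nearest 0 in pair 2, at −0.28 and −0.01. In pair 5 Pcdh10 was at −0.77 and the mesenchymal mean at −0.05.

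Cadherins that mark other cells of the tissue did not pass between the sexes. Cdh5 (VE-cadherin), the junction protein of blood vessels, had ratios of −0.26, −0.03, −0.20, −0.54 and −0.06 and a mean of −0.22 (SD 0.21, adjusted p = 0.0622). It passed without pair 2 (−0.27, adjusted p = 0.0404), and its dimmer probe read −0.08. Of 15 endothelial markers, all measured, 0 were higher and 2 lower, Sox17 and Sox18, with pair means of −0.05, 0.02, −0.33, −0.25 and 0.06. Their log2 signal was 8.54 to 8.90 in males and 8.76 to 8.88 in females. Cdh5 was nearest 0 in pairs 2 and 5, where the endothelial mean was above 0, and lower in pairs 1, 3 and 4, where that mean was below 0. The part of vessel cells in the Cdh5 values was not tested.

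Cdh15 (M-cadherin), made by muscle progenitors, averaged 0.06 (SD 0.67, adjusted p = 0.937) and varied more between pairs than any other member. Its ratios were 0.01, −0.62, 1.16, −0.31 and 0.05, high in pair 3 and low in pair 2. Skeletal muscle markers, 12 of 12 measured, averaged 0.29, −0.47, 1.48, −0.03 and 0.24 in those pairs, also highest in pair 3 and lowest in pair 2. Their log2 signal was 9.83 to 11.21 in males and 9.73 to 10.31 in females, and 0 passed in limma. At 12 h the Cdh15 ratios of −0.11, 0.23 and 0.47 stood beside muscle means of 0.02, 0.38 and 0.78. At 6 h ratios of −0.36, −0.28, 0.14 and −0.05 stood beside −0.40, −0.31, 0.22 and −0.03. The signal of muscle in a pool thus varied together with Cdh15 in all 3 comparisons, as a description over 12 pairs.

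**Figure D3:**
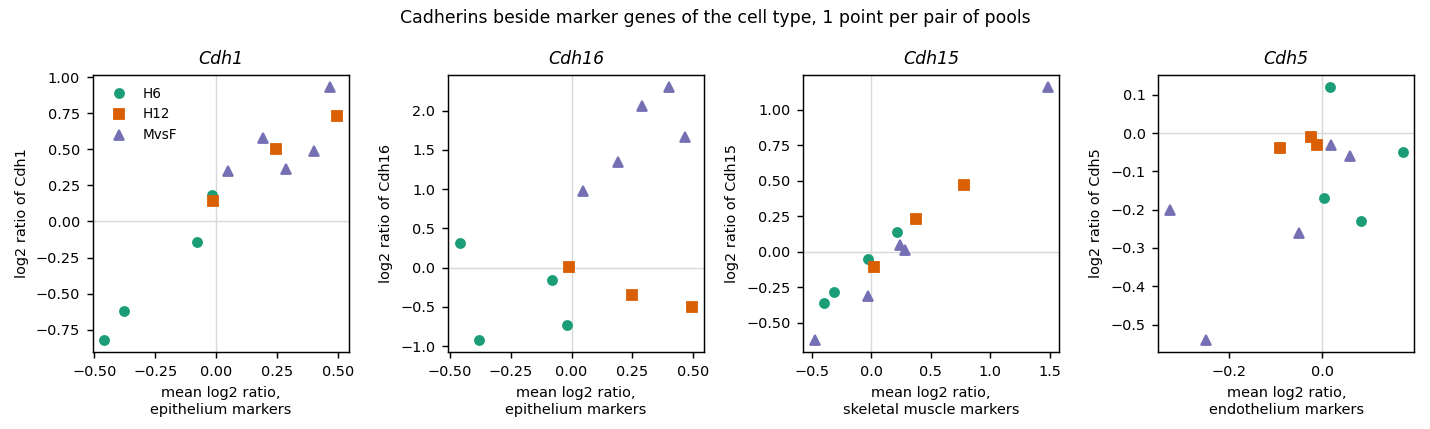
Log2 ratio of Cdh1, Cdh16, Cdh15 and Cdh5 (y axes) against the mean log2 ratio of markers of a cell type (x axes), with 1 point for each of 12 pairs: 6 h (circles, H6), 12 h (squares, H12) and male against female (triangles, MvsF). Cdh1 lies along the epithelial means and Cdh15 along the muscle means, while Cdh16 is high in the 5 male and female pairs at epithelial means from 0.05 to 0.46.

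Cdh17 (LI-cadherin), of intestinal epithelium, was well above background on 0 of 10 arrays in either sex and had a ratio of 0.04 (SD 0.06, adjusted p = 0.692). Its pair values were −0.01, 0.11, 0.09, 0.04 and −0.03, and the intestinal markers, 5 of 5 measured, averaged 0.01. Pcdh20 missed the threshold at −0.21 (SD 0.09, adjusted p = 0.0516), below 0 in 5 of 5 pairs, and passed in 5 of the settings tried. Cdh4, Cdh6, Cdh7, Cdh10, Cdh18, Cdh20, Cdh22, Cdh23, Cdh24 and Cdh26 lay between −0.11 and 0.06 without passing. So did Pcdh12, a protocadherin of endothelium, at 0.02, Pcdh15, which forms the tip link of hair cells with Cdh23, at 0.05, Pcdh21 (now Cdhr1, of photoreceptors) at −0.01, and Pcdh7 at 0.00.

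At 6 h after DHT no member passed in limma, where the background was 1.67%, or 1.17% for lower genes. At an unadjusted p under 0.05 there were 6 of 31 members (19.4%), 2 higher and 4 lower, against 14.3% of all genes. The widest ratios were in Cdh16, at 0.32, −0.92, −0.16 and −0.73 (mean −0.37, SD 0.57, adjusted p = 0.479). The DHT pools were alike, at 8.11, 8.23, 8.35 and 8.08. The vehicle pools were not, at 7.79, 9.15, 8.50 and 8.82, with the lowest signal in pair 1 and higher ones in pairs 2 to 4, the pools with Y-linked RNA. The part of that RNA in the Cdh16 values was not tested.

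Cdh1 ratios at 6 h were −0.82, −0.62, −0.14 and 0.18 (mean −0.35, SD 0.45, adjusted p = 0.273). Epithelial markers averaged −0.46, −0.38, −0.08 and −0.02 in the same pairs, with 0 of 28 above 0 over the comparison and 0 past the threshold, and their log2 signal was 8.55 to 8.70 in DHT and 8.71 to 9.01 in vehicle pools. DHT pools had Cdh1 at 10.26 to 10.53 and vehicle pools at 10.35 to 11.08, which overlap. Cdh2 (−0.15, adjusted p = 0.204), Cdh3 (−0.11, adjusted p = 0.205) and Pcdh18 (−0.14, adjusted p = 0.202) were below 0 in 4 of 4 pairs. Pcdh18 had values of −0.21, −0.09, −0.13 and −0.13, Cdh2 of −0.12, −0.16, −0.21 and −0.10, and Cdh3 of −0.10, −0.19, −0.10 and −0.05. Cdh11, at 0.25, 0.27, 0.17 and −0.02, averaged 0.17 (adjusted p = 0.146), and its dimmer probes read 0.04 and 0.01. Ratios of Cdh5 were −0.05, −0.23, 0.12 and −0.17.

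At 12 h Pcdh8 was the member that passed (1 of 31, 3.23%, against a background of 0.287%). Its log2 signals were 6.61, 6.51 and 6.29 in the DHT pools and 7.01, 6.83 and 6.57 in the vehicle pools, so DHT pools were lower within each pair while the ranges overlapped. The probe was well above background on all 6 arrays in both channels. The ratios were −0.40, −0.32 and −0.28 (mean −0.33, SD 0.06, adjusted p = 0.0264). The call was lost without pair 1 (−0.30, adjusted p = 0.0952), pair 2 (−0.34, adjusted p = 0.0926) or pair 3 (−0.36, adjusted p = 0.146). In each of these fits 0 of all genes tested passed at 12 h, against 71 with all pairs. At 6 h the same probe read 0.12, 0.19, 0.00 and 0.06.

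Cdh1 was at 0.14, 0.50 and 0.73 at 12 h (mean 0.46, SD 0.30, adjusted p = 0.227). Its DHT pools were spread, at 10.63, 10.99 and 11.20, while the vehicle pools were level at 10.50, 10.49 and 10.47. Epithelial markers averaged −0.01, 0.25 and 0.50, 27 of 28 above 0 and 0 past the threshold in limma, with a log2 signal of 8.91 to 9.31 in DHT and 8.82 to 8.92 in vehicle pools. Cdh16 was near 0 in pair 1 and below 0 in pairs 2 and 3, at 0.01, −0.35 and −0.50 (mean −0.28, SD 0.26, adjusted p = 0.679). Cdh13 (0.28, 0.14 and 0.29, adjusted p = 0.0931) and Cdh7 (−0.09, −0.18 and −0.18, adjusted p = 0.0893) missed the threshold with the same direction in 3 of 3 pairs. Pcdh10 (−0.07), Pcdh19 (−0.06) and Pcdh18 (0.05), lower in males, were near 0 at 12 h.

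Tests of the difference between comparisons showed where the male and female ratios parted from those after DHT. Against 6 h, 8 of 31 members passed (background 6.9%), 4 higher (3.5%) and 4 lower (3.39%). Cdh16 was higher by 2.04 (SE 0.281, adjusted p = 0.000911), Cdh1 by 0.90 (adjusted p = 0.0137), Cdh3 by 0.37 (adjusted p = 0.0015) and Cdh8 by 0.36 (adjusted p = 0.0105). Pcdh10 was lower by −0.67 (adjusted p = 0.00111), Pcdh19 by −0.56 (adjusted p = 0.000693), Cdh11 by −0.37 (adjusted p = 0.00842) and Pcdh8 by −0.26 (adjusted p = 0.0112). The 6 h comparison was also reduced to pair 1, the pair with little Y-linked RNA. An arm of 1 pair has no spread of its own and cannot decide whether these differences hold, so only their sizes are given. The differences were then 1.37 for Cdh1, 0.36 for Cdh3, −0.45 for Cdh11, −0.70 for Pcdh10, −0.65 for Pcdh19 and −0.29 for Pcdh8. Cdh16, at 1.35, and Cdh8, at 0.15, were smaller than with all pairs. Without pair 2 of 6 h, Cdh1 was at 0.81 (adjusted p = 0.0581).

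Against 12 h, 4 of 31 passed (background 1.65%), 3 of them lower (0.841%). Cdh16 was higher by 1.95 (SE 0.306, adjusted p = 0.00692), and Pcdh10 was lower by −0.56 (adjusted p = 0.0174), Pcdh19 by −0.46 (adjusted p = 0.0127) and Pcdh18 by −0.43 (adjusted p = 0.012). Leaving out pair 1 or pair 2 of 12 h left Cdh16 as the 1 member past, and without pair 3 Pcdh10 was at −0.57 (adjusted p = 0.0627). In these fits the 408 calls over all genes became 135, 202 and 203. For Cdh1 the difference from 12 h was 0.09 (SE 0.209, adjusted p = 0.89). Between 12 h and 6 h, 1 of 31 passed (background 0.113%, or 0.0162% for lower genes), Pcdh8, lower by −0.43 (SE 0.061, adjusted p = 0.0247). That call was lost without pair 1 or 2 of 6 h or any 1 pair of 12 h, at −0.46 to −0.39. In those fits the 28 calls over all genes became 0 to 6. Cdh1 differed by 0.81 between 12 h and 6 h (SE 0.219, adjusted p = 0.122).

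Partners of the cadherins were read from fixed lists. Among 14 measured catenins and plakophilins 0 passed in limma at 6 h or at 12 h. In males Ctnnal1 (0.18, adjusted p = 0.0071), an alpha-catenin-like protein, and Pkp3 (0.33, adjusted p = 0.0365), a desmosomal plakophilin of epithelium, were higher and Pkp4 (−0.23, adjusted p = 0.0114) lower, 3 of 14 against the background of 7.58%. The core catenins were near 0 in males, with Ctnnb1 at −0.04, Ctnna1 at −0.02 and Ctnnd1 at −0.02. Nectin2, an adherens junction protein of another family, was lower at 6 h (−0.19, adjusted p = 0.0489) and higher in males (0.20, adjusted p = 0.00561), 1 of 4 nectins each time. The shares over all genes were 1.67% at 6 h and 7.58% between the sexes.

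Of 8 transcription factors known to repress Cdh1, 3 were lower in males, against a background of 3.86% in that direction. They were Zeb1 (−0.31, adjusted p = 0.00166), Zeb2 (−0.21, adjusted p = 0.0281) and Twist2 (−0.36, adjusted p = 0.00192). The other 5 did not pass and lay between −0.01 and 0.13. Zeb1, Zeb2 and Twist2 are themselves mesenchymal genes. The mesenchymal pair means given above were also below 0 in males, and their part in these values was not tested. At 6 h Tcf3 was lower (−0.31, adjusted p = 0.0116), and the Cdh1 mean was below 0 as well (−0.35, adjusted p = 0.273). At 12 h 0 of 8 passed. Among 14 atypical cadherins Clstn2 was higher (0.48, adjusted p = 0.0087) and Fat1 (−0.35, adjusted p = 0.0408) and Celsr1 (−0.31, adjusted p = 0.012) were lower in males, with 0 past at 6 h or 12 h. These 3 of 14 compare with a background of 7.58% between the sexes. The 7 measured desmosomal cadherins and the 30 clustered protocadherins had 0 past in any comparison, and the near-identical sequences of the latter make their probes uncertain.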

How the data were processed

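The deposited scanner files give the intensity of each spot per dye and a log10 ratio, written by Agilent Feature Extraction 7.5.1 per the file headers. The deposited series matrix holds the authors' log2 ratios, with medians of −0.0112 to 0.0108 per array, whose centring is not given in the sources used here. The spot intensities were background-corrected (normexp, offset 50) and loess-normalised in R 4.3.3 with limma 3.58.1 (files read with data.table version 1.17.8), without control spots and outlier spots. Ratios were turned to DHT over vehicle or male over female. The arrays of a pair were averaged into 12 pairs. Probes well above background in a channel on at least 6 of 24 arrays were kept, 48 of 55 for the members. Gene names are those of the 6 h and 12 h files. Signals per pool were scaled with Aquantile. All pairs were fitted in limma with 1 coefficient per comparison, two-sided, with Benjamini-Hochberg adjustment over 24720 genes and a threshold of 0.05; SD is over pairs. The fit was tested on simulated data. The members and lists were chosen with earlier results of these data known. Pair values in at least 1 comparison are given for members past the threshold in any test and for the known cell type cadherins. They are also given for the member with the widest mean in each comparison and for members with a pair that stands apart. Replicate numbers were not taken to pair samples across comparisons, where correlations of deviations were −0.0689 to 0.286. These correlations cannot exclude a pairing, since even both arrays of a pair correlated at −0.512 to −0.0776 at 6 h and −0.216 to 0.0902 at 12 h. Cdh19 was not analysed here.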

Additional observations from a re-analysis of the deposited data

Results flagged for a closer look

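In Cdh10, male against female, pair 1 stood apart at 0.05 from pairs 2 to 5 at −0.06, −0.07, −0.10 and −0.06. In Pcdh7 at 6 h, pair 4 stood apart at 0.20 from pairs 1 to 3 at −0.06, −0.01 and −0.02. These were 2 of 62 series examined for a pair far from the rest, where chance gives about 1 in 20. A test of the difference between comparisons passed for Pcdh8 between 12 h and 6 h (−0.43). Between the sexes and 6 h it passed for Cdh1 (0.90), Cdh3 (0.37), Cdh8 (0.36), Cdh16 (2.04), Cdh11 (−0.37), Pcdh8 (−0.26), Pcdh10 (−0.67) and Pcdh19 (−0.56). Between the sexes and 12 h it passed for Cdh16 (1.95), Pcdh10 (−0.56), Pcdh18 (−0.43) and Pcdh19 (−0.46).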

How the results depend on the processing

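No value called here changed sign under any setting run. Among the 12 members that passed between the sexes, Cdh16, Pcdh10 and Pcdh19 kept the call under all 17 other settings, Cdh3, Pcdh9 and Pcdh18 lost it under 1, Cdh8 and Cdh13 under 2, Cdh2 and Pcdh8 under 4, Cdh1 under 6 and Cdh11 under 8. The count of 12 became 7 with the epithelial marker mean as a covariate. It was 10 to 13 when 1 pair was left out, and 1139 to 1824 over all genes. With the comparison fitted alone the count became 8, without Cdh2, Cdh11, Pcdh8 and Pcdh9, and the 1873 calls over all genes became 869. The count became 5 with the mesenchymal mean, a choice made after seeing the data. The same 2 covariates took the 1873 calls over all genes to 800 and 517. At 12 h Pcdh8 lost its call under 8 of 15 settings. The count was 0 with no background correction, the scanner's ratio, the series matrix or the comparison fitted alone. It was also 0 with the epithelial covariate or any 1 pair left out (0 to 0). Under these settings 0 of all genes passed at 12 h too, except 47 with the scanner's ratio. The count of members was 2 with 24 arrays and a dye term, where Cdh13 passed too. At 6 h it was 0 under all 17 settings, 0 to 0 without 1 pair. Between 12 h and 6 h it was 0 with no background correction, the scanner's ratio or the epithelial covariate. Over all genes 11, 0 and 0 passed there, against 28 in the main fit. The count of members was 2 (Cdh1 and Pcdh8) with the dye term, where 548 of all genes passed. It was 0 to 1 without 1 pair, and 0 to 18 over all genes. Between the sexes and 6 h the count of 8 became 0 with the epithelial covariate and 3 with the mesenchymal covariate. It was 7 to 10 without 1 pair, and 859 to 1815 over all genes. The 1705 calls over all genes became 183 and 339 with these covariates. Between the sexes and 12 h the count of 4 became 2 with median centring (360 over all genes) and 1 to 4 without 1 pair (135 to 428). It became 0 with the mesenchymal covariate, where the 408 calls over all genes became 97. The replicate block takes equal replicate numbers as pairs across comparisons, which the data neither bear out nor exclude. With it 2 members passed between 12 h and 6 h, where the 28 calls over all genes became 155. Between the sexes and 12 h 2 members (Pcdh18 and Pcdh19) passed with it, and the 408 calls over all genes became 185. Between the sexes and 6 h, 8 passed with it, and the 1705 calls over all genes became 1682. Over all genes the counts ranged from 1 to 1277 at 6 h, 0 to 189 at 12 h and 517 to 2631 between the sexes. The covariate fits and the fits without a pair leave fewer degrees of freedom, and the cause of a lost call was not tested. Probes near background, among them Cdh8 and Pcdh8, give the direction more firmly than the size.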
